A study of Chlorocebus sabaeus with 3 samples.

Results

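The limbus, the ring of tissue where the cornea meets the conjunctiva, was compared directly with the cornea of the vervet monkey (Chlorocebus sabaeus). Each tissue was read on 1 Affymetrix human U133 Plus array, so the comparison rests on 2 of the 3 arrays of the study. The conjunctiva array chose no gene and is quoted only beside the values of the other tissues. A probe set was taken where the annotation gave exactly 1 gene symbol and the value was at least 100 in limbus or in the cornea. This held for 15848 of 54675 probe sets, 41097 of which had exactly 1 symbol, and the 15848 stood for 10473 of 19775 named genes. A gene is described by the brightest of its probe sets taken, by the mean of log2 limbus and log2 cornea.

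The animals were 32 to 37 months old, and the study states that the 3 tissues came from the same eye. The cornea was a trephined centre and the limbus a narrow rim, and both pieces kept the epithelium with the upper part of the stroma under it. The number of animals behind an array is not given in the sources used here, nor is any genotype or treatment. Values are intensities on a linear scale, and log2 limbus/cornea is positive where the limbus array read higher. No tissue had a replicate array, so no difference below has an error or a test, and precision is limited by the number of arrays. Each piece was a mixture of cells, in which fewer cells of a type and less RNA per cell cannot be told apart.

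The corneal epithelium is a stratified, non-keratinized epithelium on a transparent stroma without blood vessels. It is renewed by cells that divide in the basal layer of the limbus, move toward the centre and differentiate on the way. The limbus differs from the cornea in anatomy as well: it holds blood and lymph vessels, pigment cells and immune cells, and its stroma passes into the sclera.

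Most genes read alike in both tissues. Of the 10473 genes, 9415 (89.9%) lay within 2-fold, and the median log2 limbus/cornea was -0.09, with quartiles of -0.39 and 0.24. Below, 2-fold higher means a ratio of 2 or more, and the same for 4-fold and 8-fold. A total of 619 genes (5.91%) was 2-fold higher in the limbus and 439 genes (4.19%) at least 2-fold higher in the cornea. At 4-fold the counts were 186 (1.78%) and 55 (0.525%), and at 8-fold they were 51 and 4. Large ratios were thus more frequent on the limbus side, although only 42.0% of all genes had the higher value in the limbus. Over probe sets in place of genes, 895 (5.65%) were 2-fold higher in the limbus and 670 (4.23%) in the cornea. A further count at 4-fold gave 245 (1.55%) and 77 (0.486%).

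**Figure D1:**
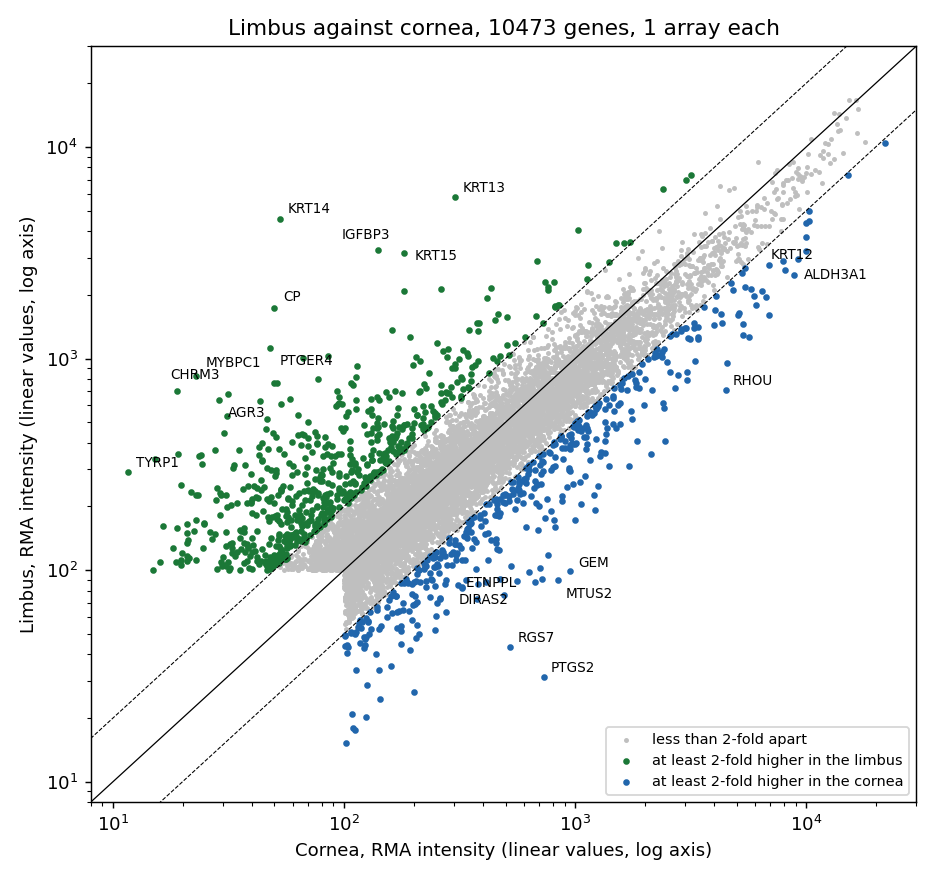
Intensity in the limbus (vertical) against intensity in the cornea (horizontal) for 10473 genes, 1 array each, both on log axes; the solid line marks equal values and the dashed lines 2-fold. The 619 green genes were 2-fold higher in the limbus and reach farther from the line, up to KRT14 at 86.3-fold, than the 439 blue genes, of which PTGS2 at 23.4-fold is the farthest.

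The level requirement shapes these counts. A gene that reached 100 in 1 array alone was taken because it was high there, and 379 of the 619 genes higher in the limbus were of this kind, against 113 of the 439 higher in the cornea. Among the 8901 genes at 100 or more in both arrays, 240 were 2-fold higher in the limbus and 326 in the cornea, so there the order of the counts was the opposite. The genes higher in the limbus had a median intensity of 276 in limbus and 77.0 in cornea, and those higher in the cornea had 225 and 624. The conjunctiva read a median of 308 for the former genes and 156 for the latter. At the edge of the requirement, probe sets of ADAMTS13 and SRPK1 were just inside with 100.05 and 100.06 in cornea, and probe sets of FOSL2 (99.98 in limbus) and TET3 (99.99 in cornea) were just outside.

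Control RNAs read lower on the limbus array than on the cornea array. All 18 probe sets of the hybridization controls, which are added after labelling, were higher in the cornea, with a mean log2 limbus/cornea of -0.62, a 1.53-fold difference. The 24 probe sets of controls added before amplification were also all higher in the cornea, by 2.71-fold on average (mean log2 -1.44, range -2.64 to -0.44). The ratio also drifted with level. Over 10 equal groups of probe sets by level, the median log2 limbus/cornea was 0.19 in the dimmest and -0.31 in the brightest. In those groups 313 and 29 probe sets were 2-fold higher in the limbus, and 120 and 97 in the cornea. Dividing each array by its hybridization controls raised every log2 ratio by 0.62 and gave 1919 genes 2-fold higher in the limbus, against 117 on the cornea side. The part of such scale differences in the results below was not tested. That shift is under 2-fold, so genes 2-fold apart keep their direction by arithmetic. Where the median of a gene group changes direction under that scaling, this is said beside it. Scaling by the controls added before amplification was not run. A shift of their 2.71-fold would reverse genes that were less than 2.71-fold higher in the cornea.

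**Figure D2:**
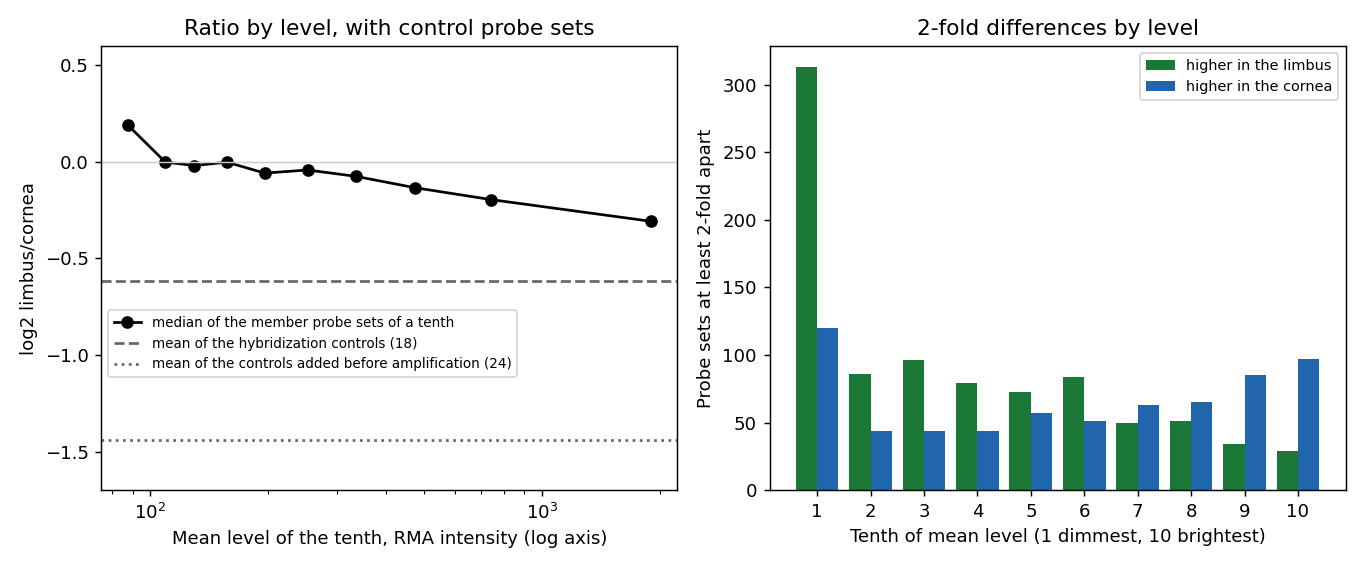
Left, median log2 limbus/cornea of the probe sets in each of 10 equal groups by mean level (log axis), with the means of the 18 hybridization controls and of the 24 controls added before amplification as horizontal lines; right, number of probe sets at least 2-fold apart in each group. The median runs from 0.19 to -0.31, both control means lie under it, and the green bars shrink from 313 to 29 while the blue bars end at 97.

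Markers of the labelled tissues were in place. KRT12, the keratin of differentiated corneal epithelium, read 8068 in cornea, 2633 in limbus and 54.3 in conjunctiva. ALDH3A1, the abundant aldehyde dehydrogenase of the corneal epithelium, read 9230, 2949 and 1041 in the same order. The limbus thus carried these corneal transcripts at about 0.32 to 0.33 of the corneal intensity. KERA, keratocan of the corneal stroma, read 312 in cornea, 85.3 in limbus and 18.5 in conjunctiva.

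The limbus array also read higher for the defining markers of several other cell types. The summed intensity of the markers was 1476 in limbus and 350.8 in cornea for 4 melanocyte markers, 1260 and 408 for 5 blood endothelium markers, 874 and 445 for 5 leukocyte markers, and 897 and 406 for 4 markers of smooth muscle and pericytes. All members of the melanocyte, blood endothelium and leukocyte sets read higher in the limbus, 3 of 4, 3 of 5 and 2 of 5 of them at least 2-fold. A marker under 100 in the cornea was taken only for its limbus value, so its direction was fixed by the level requirement. This holds for TYR, TYRP1 and MLANA, for PECAM1, CDH5, KDR and CLDN5, and for CD53, TYROBP and CD14. For the 3 corneal epithelium markers the sums were 5755 in limbus and 17550 in cornea, and for the 3 keratocyte markers 5249 and 9783. Sums were 555 and 385 for 3 goblet cell markers, 339 and 223 for 2 lymphatic markers, and 238 in both tissues for 2 markers of the corneal endothelium. SOX10, counted here for Schwann cells and also made by melanocytes, read 116 in limbus and 88.7 in cornea, and its other probe set 160 and 59.6. LYZ of the lacrimal gland read 3166 in limbus and 3907 in cornea. The pan-leukocyte marker PTPRC stayed under 100 in both arrays, at 81.9 in limbus and 18.8 in cornea. What part these cell types have in the differences below was not tested.

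The 25 genes with the largest ratio in favour of the limbus were 12.05 to 86.3-fold higher there, and 18 of them read under 50 in cornea. KRT14, the type I keratin of basal epithelial cells, had the largest ratio of all 10473 genes. Its intensity was 4580 in limbus, 53.1 in cornea and 5521 in conjunctiva (log2 limbus/cornea 6.43). KRT14 is close in sequence to KRT16 and KRT17, of which KRT16 was under 100 in both arrays and KRT17 is not analysed here. CHRM3, the M3 muscarinic acetylcholine receptor, read 700 in limbus, 19.0 in cornea and 697 in conjunctiva. Both genes were thus as bright in the conjunctiva as in the limbus and dim in the cornea alone.

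Secreted proteins and receptors were among these 25. CP, the copper-binding plasma protein ceruloplasmin, read 1730 in limbus, 49.8 in cornea and 8871 in conjunctiva. IGFBP3, which binds insulin-like growth factors, read 3272, 140 and 3603 in the same order. PTGER4, a receptor of prostaglandin E2, read 1117, 47.9 and 2662. For all 3 of these genes the conjunctiva was higher still than the limbus. ENPP2, the enzyme autotaxin that makes lysophosphatidic acid, read 677 in limbus, 31.6 in cornea and 922 in conjunctiva. PIGR, which carries polymeric immunoglobulins across epithelia, read 1028 in limbus, 85.4 in cornea and 3344 in conjunctiva. Its other probe set read 88.4 in limbus and 107 in cornea, a log2 ratio of -0.27, so the probe sets of PIGR disagreed.

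A different pattern, high in the limbus and low on both sides of it, was seen for MYBPC1, TYRP1 and STEAP1. MYBPC1, a myosin-binding protein of slow skeletal muscle, read 831 in limbus, 23.0 in cornea and 78.4 in conjunctiva. TYRP1, a melanosome protein of melanin synthesis, read 290 in limbus, 11.7 in cornea and 21.6 in conjunctiva. STEAP1, a membrane protein of the metalloreductase family, read 316, 24.2 and 102 in the same order. The defining markers of skeletal muscle (TTN, ACTA1, CKM, MYH2 and MYH7) were all under 100 in both arrays.

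Regulators of transcription among the 25 were PPARGC1A, a coactivator of mitochondrial genes, CREB5, SOX9, RUNX2, the thyroid hormone receptor THRB, and LDB2. SOX9, a factor of epithelial progenitors and cartilage, read 350.6 in limbus, 23.9 in cornea and 566 in conjunctiva. A further probe set of SOX9 read 140, 19.2 and 151. RUNX2, the runt factor of bone formation, read 443, 30.3 and 708, and THRB read 633, 43.5 and 378. The remaining leading genes were AGR3, KRT13, TMEM150C, KRT15, MAN1A1, VLDLR, KCNMA1, CRNN and UST, with folds between 13.4 and 22.1.

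The 25 genes with the largest ratio in favour of the cornea were 5.22 to 23.4-fold higher there. PTGS2, the inducible cyclooxygenase that starts prostaglandin synthesis, had the largest: 731 in cornea, 31.3 in limbus and 21.0 in conjunctiva (log2 limbus/cornea -4.55). Its other probe set read 224, 22.0 and 12.9. RGS7, a regulator of G protein signalling known from neurons, read 524 in cornea, 43.2 in limbus and 12.1 in conjunctiva. In both genes the limbus and the conjunctiva were under 50.

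GEM, RASGRF1, DIRAS2 and RASGRP2, which encode small G proteins or their exchange factors, were among the 25. GEM, a GTP-binding protein of the Ras superfamily, read 946 in cornea, 99.6 in limbus and 44.1 in conjunctiva. RASGRF1, an exchange factor for Ras, read 708, 102 and 60.5, and its other probe set 601, 62.7 and 27.4. DIRAS2, another GTPase of the Ras family, read 669 in cornea, 87.7 in limbus and 13.7 in conjunctiva. RASGRP2, a further exchange factor, read 492 in cornea and 76.7 in limbus, but its other probe set was higher in the limbus, with 120 against 74.1.

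Genes known from neurons or excitable cells were also among the 25. The cornea holds nerve endings but no neuron cell bodies. CNTNAP2, a neurexin-family membrane protein of axons, read 2441 in cornea, 406 in limbus and 38.0 in conjunctiva. JPH1, a junctophilin that ties the plasma membrane to internal calcium stores, read 2134, 352 and 136. TENM2, a teneurin adhesion protein, read 1000 in cornea, 172 in limbus and 70.0 in conjunctiva. For CNTNAP2, JPH1 and TENM2 the limbus was between the other tissues. NEFM, a neurofilament subunit, was dim, with 102 in cornea and 15.2 in limbus. E2F7, a repressor of cell cycle genes, read 1710 in cornea, 311 in limbus and 43.8 in conjunctiva. The other leading genes were RHOU, MTUS2, ETNPPL, SPHKAP, CHST11, ABAT, NCKAP5, PLAAT2, SMIM32, FA2H, ENPEP, SHISA2, RCBTB2 and TRIM36, with folds between 5.22 and 9.42.

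**Figure D3:**
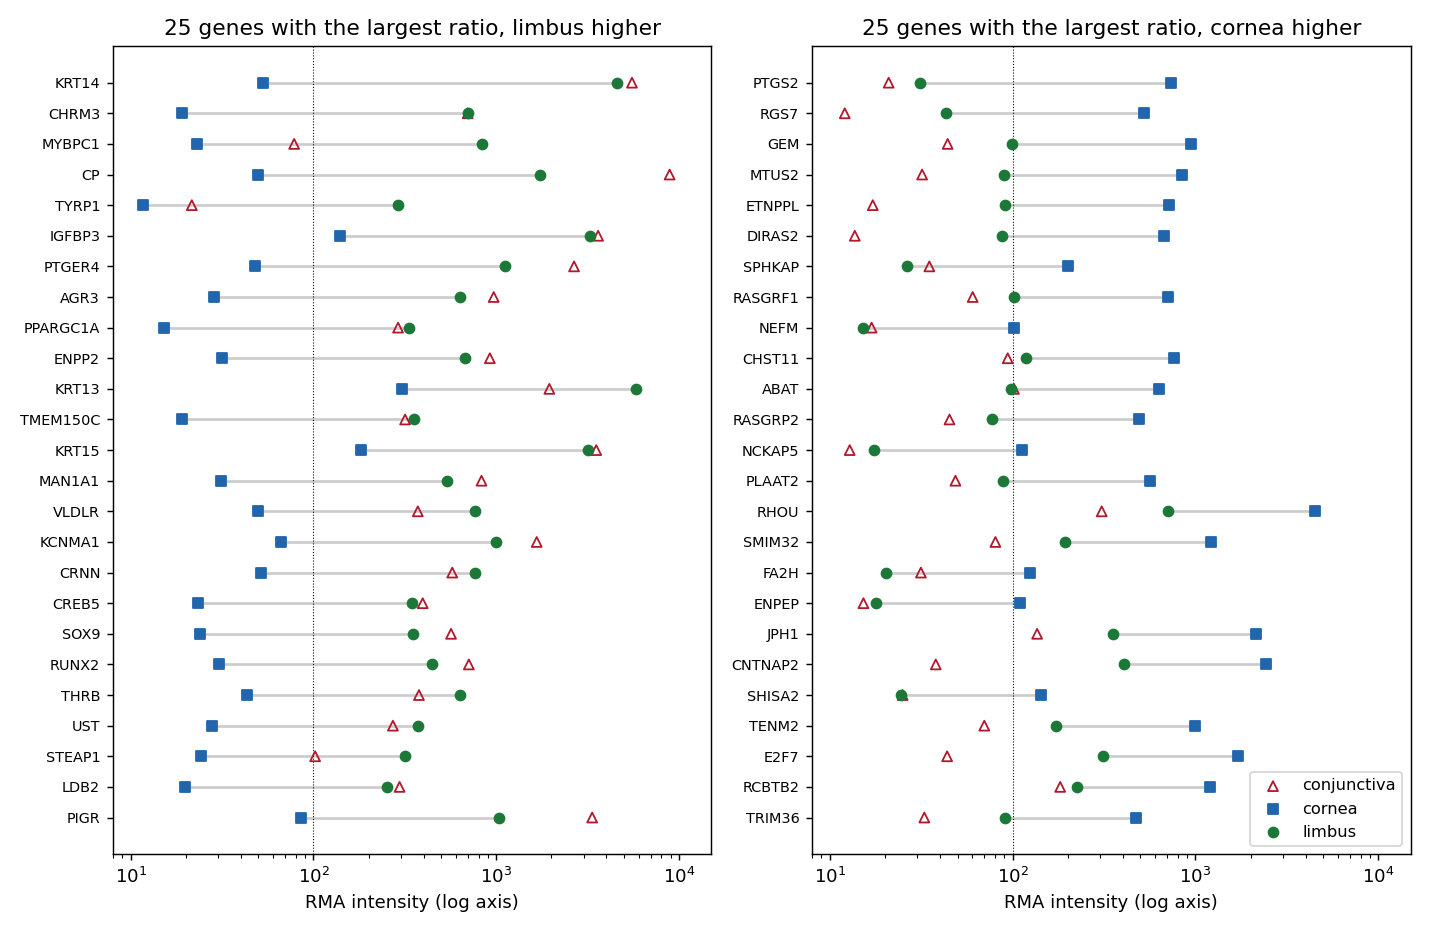
Intensity (log axis) by tissue for the 25 genes with the largest ratio on each side, 1 array per tissue, with a dotted line at 100. On the left the cornea lies apart at low values, 18 of 25 under 50, and the conjunctiva lies well below the limbus in MYBPC1, TYRP1 and STEAP1; on the right PTGS2 has the widest gap.

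Further probe sets of the same gene gave a second reading within each array pair. Of the 619 genes higher in the limbus, 139 had other probe sets taken, 175 in all, and 101 of these (57.7%) were also at least 2-fold higher in the limbus. A further 163 of the 439 genes higher in the cornea had 242 other probe sets, of which 76 (31.4%) were 2-fold higher in the cornea. Over all genes, other probe sets were 2-fold higher in the limbus in 5.13% and in the cornea in 4.30%. The side was the same for 91.4% of the other probe sets of limbus genes and for 86.4% of those of cornea genes. Of all other probe sets, 43.4% were higher in the limbus and 56.6% in the cornea. Any other probe set that met the level requirement in 1 array alone had its side fixed by that requirement. The agreement in side, and the 2-fold shares above, are thus partly set by the level requirement. How large that part is was not tested. In 1 gene, TDRP, the other probe set was 2-fold apart the opposite way: 473 in limbus and 990 in cornea on the brightest, 206 and 42.5 on the other. Probe sets of a gene share the RNA of the array and are no replicate of the tissue.

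**Figure D4:**
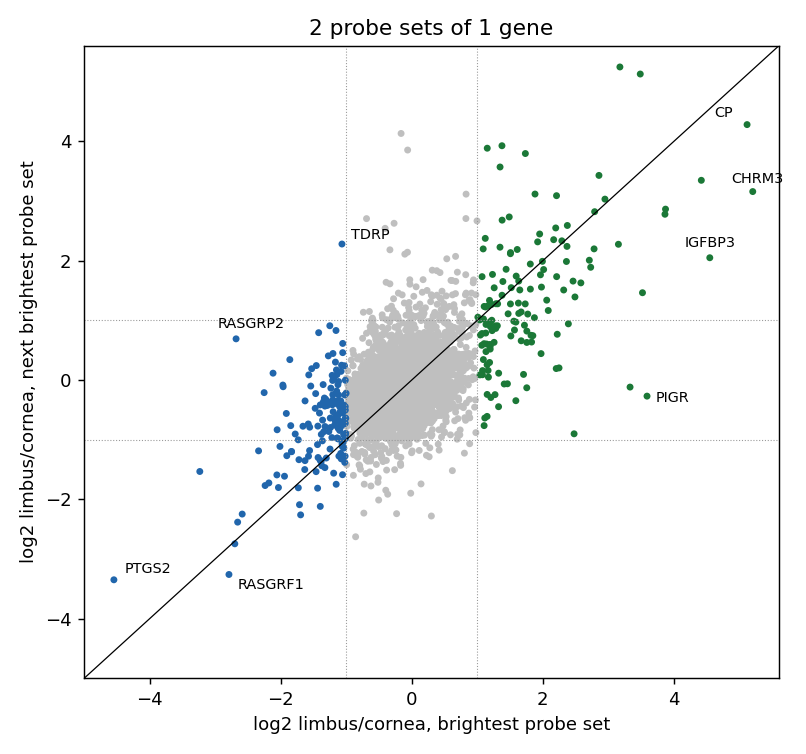
log2 limbus/cornea of the brightest probe set (horizontal) and the next brightest (vertical) of genes with more than 1 probe set taken; green and blue mark genes at least 2-fold apart on the brightest, and dotted lines mark 2-fold. PTGS2, CP, CHRM3 and IGFBP3 lie far out on both, PIGR (-0.27 on its other probe set) and RASGRP2 (0.69) do not, and TDRP lies 2-fold apart in opposite directions.

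Genes were then read in 39 lists by function and cell type, and the median of each list is set beside -0.09 for all genes. The number of members 2-fold higher is to be read against the 5.91% (limbus) and 4.19% (cornea) of all genes given above. That share amounts to about 1 member in each direction in a list of 20. It depended on level: of the 920 genes at 100 or more in the limbus alone, 379 were 2-fold higher there. Of the 8901 genes at 100 or more in both arrays, 240 were. Counts in lists with many members under 100 in the cornea are thus partly set by the level requirement. A member under 100 in 1 array alone was taken only for its value in the other array, which fixed its direction. This holds for each such gene below, also where it is not repeated. The corneal epithelial differentiation list was lowest. Of 19 members, 11 were 2-fold higher in the cornea and 0 in the limbus, with a median log2 limbus/cornea of -1.19, or -0.57 after scaling by hybridization controls. The crystallin-like enzymes that fill corneal epithelial cells were among the 11. TKT, transketolase of the pentose phosphate pathway, read 8887 in cornea, 2491 in limbus and 915 in conjunctiva, and ALDH1A1, a retinaldehyde dehydrogenase, read 6432, 2093 and 1658. Gap junction genes belonged to them too: GJB6, a connexin, read 2716, 727 and 221. GJA1, the most widespread connexin, read 10298 in cornea, 4485 in limbus and 1551 in conjunctiva. KLF4, a Kruppel-like factor needed for the corneal epithelium, read 10012, 3770 and 3006 in that order. KRT24, a type I keratin, read 4797 in cornea, 2105 in limbus and 22.6 in conjunctiva. The limbus was the intermediate tissue in each of these genes.

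Not every gene of that list followed. PAX6, the eye field factor, read 7742 in cornea, 4540 in limbus and 3460 in conjunctiva, under 2-fold apart. KLF5 was the member with the highest ratio for the limbus, 3983 against 2312 in cornea. EHF, also of this list, had a log2 limbus/cornea of 0.48 on its brightest probe set and 1.28 on the next. KRT3, the partner keratin of KRT12, read 252 in cornea and 174 in limbus. SLURP1 and WNT7A, a secreted immunomodulator and a Wnt ligand, were 2-fold higher in the cornea at low levels, WNT7A with 273 against 85.9 in limbus.

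Candidate genes of basal and limbal progenitor cells showed the opposite tendency: 11 of 19 were 2-fold higher in the limbus and 2 in the cornea, with a median of 1.20. Of the 11, KRT14, ITGA9, SOX9, GPHA2, TNFRSF19 and PTN were under 100 in cornea. They were taken only for their limbus value, so the count and the median are partly set by the level requirement. KRT15, a keratin of basal cells, read 3159 in limbus, 182 in cornea and 3520 in conjunctiva. KRT5, the type II partner of KRT14, differed little, with 6129 in limbus, 7264 in cornea and 3293 in conjunctiva. The 2 keratins of this pair therefore had log2 ratios of 6.43 (KRT14) and -0.25 (KRT5), each from 1 probe set. HOPX, an atypical homeodomain protein, read 4049 in limbus, 1024 in cornea and 1789 in conjunctiva. TNFRSF19, a receptor of the tumour necrosis factor family and a target of Wnt signalling, read 234, 21.8 and 49.7. CDH3, P-cadherin of basal epithelial layers, read 904 in limbus, 302 in cornea and 427 in conjunctiva. HOPX, TNFRSF19 and CDH3 were higher in the limbus than in either neighbour.

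ITGA9, an integrin chain proposed for limbal basal cells, read 165 in limbus, 24.8 in cornea and 185 in conjunctiva. GPHA2, a glycoprotein hormone subunit, stood near the limit, with 169 in limbus, 81.8 in cornea and 93.6 in conjunctiva. The 2 members higher in the cornea were ITGA6 and S100A4. ITGA6, the laminin-binding integrin of hemidesmosomes, read 1297 in cornea, 360 in limbus and 451 in conjunctiva, and its other probe set 228, 134 and 201. ABCG2, ABCB5, NGFR and FRZB were under 100 in both arrays, and TP63 and BMI1 are not analysed here.

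Keratins of mucosal and suprabasal cells had the highest median of all lists, 1.85 over 6 members, with 4 at least 2-fold higher in the limbus and 1 in the cornea. KRT13, a keratin of suprabasal cells in moist mucosae, read 5797 in limbus, 303 in cornea and 1950 in conjunctiva. KRT4, its type II partner, read 2084, 181 and 1122. Both keratins of this pair were higher in the limbus than on either side of it. The simple-epithelium keratin KRT8 read 309 in limbus, 60.0 in cornea and 725 in conjunctiva, while its partner KRT18 was higher in the cornea, at 1571 against 618 in limbus. Of the cornified envelope genes, 1 of 9 was 2-fold apart: CRNN, cornulin of squamous mucosa, with 768 in limbus, 51.5 in cornea and 574 in conjunctiva. The median of that list was -0.47, which turned to 0.15 after scaling by hybridization controls.

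Cell junction genes were split. In the desmosome list 2 of 12 members were 2-fold higher in the limbus and 3 in the cornea (median 0.06), and the desmosomal cadherins went both ways. DSG3, a desmoglein of basal layers, read 248 in limbus, 45.0 in cornea and 59.1 in conjunctiva. DSG1, the desmoglein of upper layers, read 120 in limbus, 291 in cornea and 13.5 in conjunctiva. DSC2, a desmocollin, read 373, 1116 and 63.4, and DSP, desmoplakin of the desmosomal plaque, 726, 1895 and 431. Among 7 classical cadherins and catenins, CDH3 and CDH6 were 2-fold higher in the limbus, and CDH2 and CTNNA1 in the cornea (median 0.29). CDH2, N-cadherin, was dim at 237 in cornea and 90.3 in limbus. Tight junction genes did not reach 2-fold in any of 13 members. Their brightest member, CLDN1, read 1348 in limbus and 1536 in cornea, and their median of -0.03 turned positive after quantile normalization (0.22), after scaling by ribosomal proteins (0.23) or hybridization controls (0.58) and with the trend removed (0.14).

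**Figure D5:**
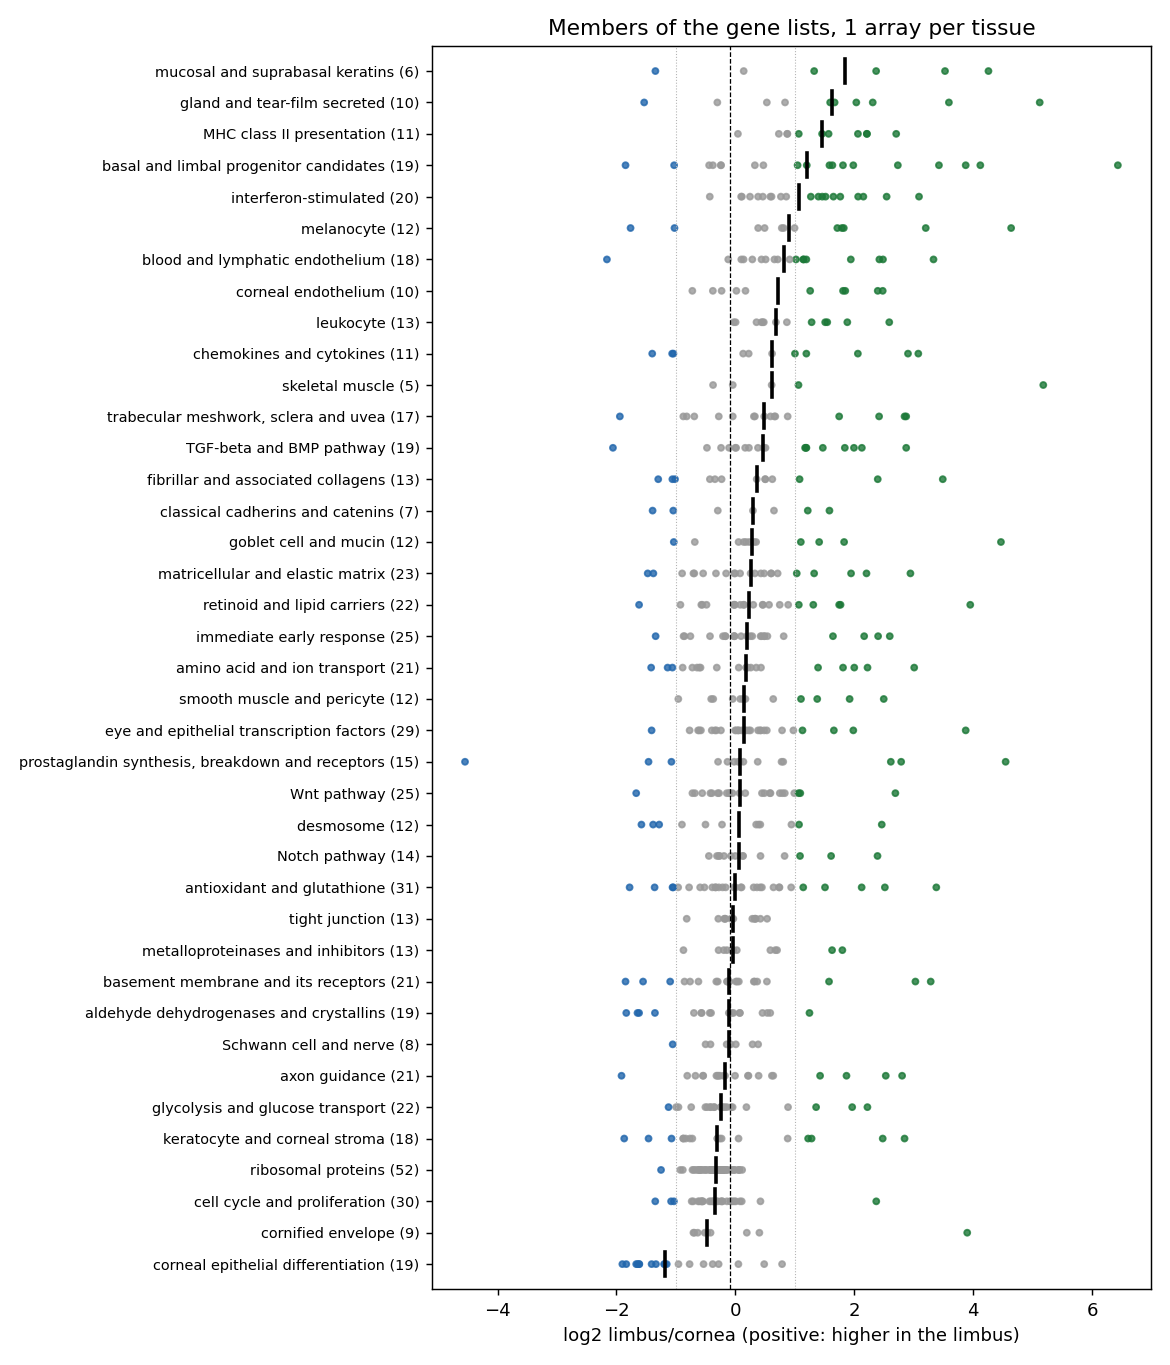
log2 limbus/cornea of each member of the 39 gene lists, with the number of members in brackets, the list median as a black bar, green and blue points at least 2-fold apart, and a dashed line at the median of all genes (-0.09). Medians run from -1.19 for corneal epithelial differentiation to 1.85 for mucosal and suprabasal keratins, and most lists hold points on both sides.

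Stromal matrix genes were mixed. Of 18 genes of keratocytes and the corneal stroma, 3 were 2-fold higher in the cornea and 4 in the limbus, with a median of -0.30, or 0.31 after scaling by hybridization controls. The higher value was in the cornea for 12 of the 18, against 6070 of all 10473 genes. TGFBI, a matrix protein whose mutations cause corneal dystrophies, read 21896 in cornea, 10399 in limbus and 3549 in conjunctiva. PTGDS, prostaglandin D synthase, read 7945, 2887 and 1394, and all 3 of its probe sets were more than 2-fold higher in the cornea. The small proteoglycan DCN, decorin, read 9335 in cornea and 5084 in limbus, and 2 of its 3 other probe sets passed 2-fold in the same direction. On the other side, FMOD, fibromodulin, a proteoglycan of sclera and tendon, read 375 in limbus, 52.2 in cornea and 188 in conjunctiva. LUM, lumican, was dim with 137 in cornea and 80.4 in limbus.

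Collagens were likewise divided, with 3 of 13 at least 2-fold higher in each tissue (median 0.36). COL3A1, the collagen of loose and vascular connective tissue, read 519 in limbus, 46.3 in cornea and 2105 in conjunctiva. Its 3 other probe sets had log2 limbus/cornea of 2.82 to 5.13. COL8A1, a short-chain collagen, read 208 in limbus, 39.6 in cornea and 43.2 in conjunctiva. COL6A3 and COL12A1, of microfibrils and fibril surfaces, were higher in the cornea, COL6A3 with 3085 against 1255 in limbus and COL12A1 with 1628 against 806. The main fibrillar collagen COL1A1 was under 2-fold apart on its brightest probe set, at 2371 in limbus, 1542 in cornea and 5589 in conjunctiva. Of its other probe sets taken, 1 was 2-fold higher in the limbus (776 against 289) and 1 was equal (260 against 262).

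In the basement membrane the collagen IV chains separated by pair. COL4A1 and COL4A2, the chains of most basement membranes including those of vessels, read 350.8 and 170 in limbus against 43.0 and 56.9 in cornea. COL4A3 and COL4A4, which assemble in specialized basement membranes, read 65.0 and 84.1 in limbus against 118 and 247 in cornea. COL4A4 passed 2-fold and COL4A3 did not. FRAS1, an extracellular protein that anchors epithelium to stroma, read 161 in limbus, 16.5 in cornea and 115 in conjunctiva. Over the whole list 3 of 21 members were 2-fold higher in each tissue, with a median of -0.10 that turned positive after quantile normalization (0.06), after scaling by hybridization controls (0.52) or by ribosomal proteins (0.16) and with the trend removed (0.11).

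Matricellular and elastic fibre genes were 2-fold higher in the limbus in 5 of 23 and in the cornea in 2 (median 0.26). TNC, tenascin C of remodelling matrix, read 213.8 in limbus, 27.8 in cornea and 39.6 in conjunctiva. POSTN, periostin, read 116, 30.1 and 65.7. COCH, cochlin, also in the trabecular meshwork list below, was under 2-fold on its brightest probe set (log2 limbus/cornea -0.69). Its next probe set had 2.71, so the probe sets of COCH disagreed. FBN1, fibrillin of elastic microfibrils, read 698 in limbus, 151 in cornea and 1118 in conjunctiva, but its other probe set only 101.3 and 88.7 in the first pair. SPARC, a collagen-binding glycoprotein, was higher in the cornea at 4006 against 1441 in limbus (265 against 191 on its other probe set), as was MATN2, a matrilin, at 365 against 140. THBS4, a thrombospondin, was under 2-fold apart with 6934 in cornea and 4252 in limbus, and read 132.5 in conjunctiva. Of 13 metalloproteinases and inhibitors, 2 were 2-fold higher in the limbus: MMP9, gelatinase B, with 224 against 72.6 in cornea, and ADAMTS5, an aggrecanase, with 132 against 38.1. That list's median of -0.04 turned positive after scaling by hybridization controls (0.58) or ribosomal proteins (0.23) and with the trend removed (0.04).

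Melanocyte genes were higher in the limbus by at least 2-fold in 5 of 12 members and higher in the cornea in 2, with a median of 0.90. MLANA, a melanosome protein, read 303 in limbus, 32.9 in cornea and 113 in conjunctiva. MITF, the master factor of the lineage, read 375, 106 and 174, and PMEL, the fibril protein of melanosomes, 695, 212 and 420. TYR, tyrosinase, was just short of 2-fold, at 188 in limbus and 94.4 in cornea, and its other probe set read 123 and 19.3. KIT and EDNRB, receptors that melanocytes share with other cells, were the 2 higher in the cornea, EDNRB on 1 of its 2 probe sets taken. KIT, the stem cell factor receptor, read 6078 in cornea, 1791 in limbus and 1607 in conjunctiva.

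Vessel genes were higher in the limbus far more often than in the cornea. In the endothelium list 8 of 18 were 2-fold higher in the limbus and 1, RELN, in the cornea, with a median of 0.81. Of the 8, PECAM1, CDH5, FLT1, TIE1, EMCN, ERG and CCL21 were under 100 in cornea. They were taken only for their limbus value, which fixed their direction. PECAM1, the junction protein CD31, read 462 in limbus, 45.9 in cornea and 675 in conjunctiva, but its other probe set read 126 and 136 in the first pair. VWF, von Willebrand factor, read 407, 106 and 940. TIE1, an endothelial receptor kinase, read 117 in limbus and 21.0 in cornea, and EMCN, endomucin, 223 and 41.6. Of the lymphatic markers, CCL21 read 182 in limbus and 79.6 in cornea, and PROX1 was nearly equal, with 157 in limbus and 143 in cornea. LYVE1 (43.8 in limbus, 25.4 in cornea) and MMRN1 (26.6 and 10.9) were under 100 in both arrays. RELN, the secreted glycoprotein reelin, read 693 in cornea, 155 in limbus and 243 in conjunctiva.

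In the smooth muscle and pericyte list 4 of 12 were 2-fold higher in the limbus and 0 in the cornea (median 0.15). ACTA2, smooth muscle actin, read 431 in limbus, 76.4 in cornea and 1847 in conjunctiva, whereas MYH11, the heavy chain of mature smooth muscle, was alike at 160 in limbus and 142 in cornea. The skeletal muscle list had 5 members in all, of which MYBPC1 and TNNI2 were 2-fold higher in the limbus and 0 in the cornea (median 0.61). TNNI2, the fast troponin I, read 385 in limbus and 184 in cornea. Of 8 Schwann cell and nerve genes 1 was 2-fold apart, GAP43 of growing axons, at 139 in cornea, 66.9 in limbus and 18.8 in conjunctiva. The median of those 8 genes, -0.11, turned to 0.50 after scaling by hybridization controls and to 0.15 after scaling by ribosomal proteins.

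MHC class II and leukocyte genes were higher in the limbus wherever they were 2-fold apart. Of these genes, HLA-DPA1, HLA-DQA1, HLA-DMA, TYROBP, CPA3, S100A8 and S100A9 were under 100 in cornea. They were taken only for their limbus value, which fixed their direction. MHC class II genes, which present antigen on dendritic cells and macrophages, were 2-fold higher in the limbus in 7 of 11 members and in the cornea in 0, with a median of 1.46. HLA-DRB1 read 1930 in limbus, 417 in cornea and 5110 in conjunctiva, and HLA-DQA1 read 138, 21.2 and 636. HLA-DPA1 read 289 in limbus, 62.5 in cornea and 158 in conjunctiva, so that the limbus was highest for it. Some HLA genes are near-identical copies, so the value of any 1 of those is uncertain. In the leukocyte list 5 of 13 were 2-fold higher in the limbus and 0 in the cornea (median 0.68). TYROBP, an adaptor of myeloid cells, read 121 in limbus and 32.8 in cornea, and S100A9, a calcium-binding protein of neutrophils that squamous epithelium also makes, 452 and 75.2.

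Interferon-stimulated genes were 2-fold higher in the limbus in 10 of 20 members and in the cornea in 0, with a median of 1.06. Of the 10, IFI44, IFITM1, MX2, GBP1 and HERC5 were under 100 in cornea. The level requirement thus fixed their direction. IFI44 read 540 in limbus, 63.5 in cornea and 435 in conjunctiva, and MX2, an antiviral GTPase, read 354, 84.5 and 186. IFIT1, an RNA-binding antiviral protein, read 474 in limbus, 140 in cornea and 166 in conjunctiva. IFIT2, from the same family, was the member with the lowest ratio, at 132 in limbus and 178 in cornea. Of 11 chemokines and cytokines, 5 were 2-fold higher in the limbus and 3 in the cornea (median 0.62). CXCL17, a mucosal chemokine, read 1363 in limbus, 162 in cornea and 3163 in conjunctiva, and CXCL10, which interferon induces, 331, 44.3 and 292. The epithelial chemokine CXCL14 was higher in the cornea, at 10295 against 4997 in limbus (its other probe sets were under 2-fold apart), as were IL18 (1239 against 593) and TNFSF10 (1118 against 424), the death ligand TRAIL.

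Goblet cell and gland genes differed by gene. Among 12 goblet cell and mucin genes, 4 were 2-fold higher in the limbus and 1 in the cornea (median 0.27). MUC5AC, the secreted mucin of goblet cells, was alike in both, at 127 in limbus and 102 in cornea, while the conjunctiva read 1618. The goblet cell marker SPDEF was alike as well, with 206 in limbus, 199 in cornea and 277 in conjunctiva. TFF1, the remaining marker of that set, passed 2-fold: its values were 222, 83.7 and 1568 in the same order. Being under 100 in cornea, TFF1 was taken only for its limbus value, which fixed its direction. AGR3 and AGR2, related protein disulphide isomerases of secretory cells, went opposite ways. AGR3 read 634 in limbus, 28.7 in cornea and 968 in conjunctiva, and AGR2 read 595, 1220 and 4718. The membrane mucin MUC1 read 472 in limbus and 132.8 in cornea. Of 10 secreted gland and tear film genes, 6 were 2-fold higher in the limbus and 1, the defensin DEFB1, in the cornea, with a median of 1.63. Of the 6, PIGR, CP, SLPI, PI3 and PLA2G2A were under 100 in cornea, and DEFB1 was under 100 in limbus. Each of these was taken only for its value in the other tissue, which fixed its direction. LCN2, the siderophore-binding lipocalin, read 541 in limbus, 132 in cornea and 7557 in conjunctiva. The lacrimal gland markers LTF and LCN1 were under 100 in both tissues.

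Prostaglandin genes held large ratios in both directions: 3 of 15 were 2-fold higher in each tissue, and the median was 0.08. On the side of synthesis, PTGS2 and PTGDS were higher in the cornea, as given above, while the constitutive cyclooxygenase PTGS1 was equal at 269 in limbus and 273 in cornea. On the side of removal and export, HPGD, which inactivates prostaglandins, read 753 in limbus, 109 in cornea and 119 in conjunctiva. ABCC4, a transporter that exports prostaglandins, read 250 in limbus, 40.9 in cornea and 255 in conjunctiva. The receptor PTGER4, given above, was 23.3-fold higher in the limbus, whereas PTGER1 read 170 in limbus and 208 in cornea. AKR1C3, a prostaglandin F synthase with close gene copies, was higher in the cornea at a low level, 120 against 56.9.

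In the TGF-beta and BMP pathway 8 of 19 members were 2-fold higher in the limbus and 1 in the cornea (median 0.47). The ligand TGFB2 was the member higher in the cornea, at 2427 against 582 in limbus and 123 in conjunctiva, and its 3 other probe sets had log2 limbus/cornea of -2.41 to -1.59. Its receptors TGFBR2 and TGFBR3 were higher in the limbus: TGFBR2 read 227 in limbus and 52.0 in cornea, and TGFBR3 2118 and 764. TGFBR1 read 513 in limbus and 715 in cornea. The extracellular antagonists FST and CHRDL1 were higher in the limbus, with FST, follistatin, at 484 against 121 and CHRDL1, a BMP binder, at 227 against 31.0. The intracellular inhibitor SMAD7 read 117 in limbus and 51.7 in cornea.

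Wnt genes were mostly alike, with 3 of 25 members 2-fold higher in the limbus and 1, WNT7A, in the cornea (median 0.07). WIF1, a secreted inhibitor that binds Wnt ligands, read 593 in limbus, 91.9 in cornea and 124 in conjunctiva. The receptor FZD1 read 735 in limbus and 345 in cornea, and the factor TCF7L1 read 372 and 178. The target gene AXIN2 was under 2-fold apart with 450 and 302. In the Notch pathway 3 of 14 were 2-fold higher in the limbus and 0 in the cornea (median 0.06): the ligand DLL1 (283 against 133.3) and the target genes HEY1 (535 against 102) and HEY2 (122 against 40.0). HES1, another Notch target, read 1493 in limbus and 1852 in cornea, but its other probe set 1111 and 471, 2-fold higher in the limbus. The ligand JAG1 read 1920 in limbus and 1922 in cornea. Members of the Wnt and Notch lists under 2-fold lay on both sides of 0.

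Axon guidance genes included 4 of 21 at least 2-fold higher in the limbus and 1 in the cornea, with a median of -0.17 that turned positive after quantile normalization (0.01), with the trend removed (0.05) and after scaling by ribosomal proteins (0.09) or hybridization controls (0.44). The neuropilins, co-receptors of semaphorins and VEGF, went opposite ways. NRP1 read 127 in limbus, 18.2 in cornea and 180 in conjunctiva, and NRP2 read 54.9, 207 and 34.1. NTNG1, a membrane-bound netrin, read 244 in limbus, 42.2 in cornea and 70.8 in conjunctiva, and the Slit receptor ROBO2 153, 41.8 and 21.8. VEGFA, the ligand, read 1180 in limbus, 253 in cornea and 1667 in conjunctiva.

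Immediate early genes, which cells switch on within minutes of a stimulus, were 2-fold higher in the limbus in 4 of 25 members and in the cornea in 1 (median 0.19). FOS read 209 in limbus, 39.6 in cornea and 290 in conjunctiva, and JUN, its partner in AP-1, read 638, 142 and 515. CCN2, connective tissue growth factor, read 120 in limbus and 19.9 in cornea, and KLF2, a shear-responsive factor of endothelium, 440 and 141. EGR1 read 499 and 284, and JUNB 386 and 392, so members of a family differed. IER3 was the member higher in the cornea, at 460 against 181.

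Few proliferation genes passed 2-fold. Of 30 cell cycle genes, 1 was 2-fold higher in the limbus and 3 in the cornea, with a median of -0.35, which turned to 0.27 after scaling by hybridization controls. CCND2, a cyclin of G1, read 394 in limbus, 76.2 in cornea and 289 in conjunctiva. TOP2A, topoisomerase of dividing cells, read 125 in limbus and 265 in cornea, AURKA, a mitotic kinase, 77.4 and 197, and NUSAP1, a spindle protein, 174 and 355. The proliferation marker MKI67 read 165 in limbus, 196 in cornea and 174 in conjunctiva, and PCNA 1202, 1856 and 1168. Ribosomal protein genes gave a reference of like size: 1 of 52 (RPLP2, 107 in limbus and 254 in cornea) passed 2-fold, and their median of -0.32 turned to 0.03 after quantile normalization and 0.30 after scaling by hybridization controls.

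Metabolic and protective enzymes were mixed. Among 19 aldehyde dehydrogenases and crystallins, 4 were 2-fold higher in the cornea and 1 in the limbus; their median of -0.11 turned to 0.15 after scaling by ribosomal proteins and 0.51 by hybridization controls. ALDH1L1, a folate enzyme, read 309 in cornea and 121 in limbus, but its other probe set 110 and 104. The mitochondrial ALDH2 read 197 in cornea and 468 in limbus. Of 31 antioxidant genes, 5 were 2-fold higher in the limbus and 4 in the cornea (median 0.00). GPX2, a glutathione peroxidase of epithelia, read 804 in limbus, 77.3 in cornea and 288 in conjunctiva, and GSTA4, which conjugates lipid aldehydes, read 386, 88.5 and 229. NQO1, a quinone reductase, read 1943 in limbus, 6668 in cornea and 759 in conjunctiva; of its 2 other probe sets, with log2 limbus/cornea of -0.91 and -0.52, neither passed 2-fold.

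Glycolysis genes included 3 of 22 at least 2-fold higher in the limbus and 1 in the cornea, although 17 of the 22 had the higher value in the cornea, with a median of -0.25 that turned to 0.02 after scaling by ribosomal proteins and 0.37 by hybridization controls. The lactate dehydrogenase subunits were opposed. LDHB read 1465 in limbus, 376 in cornea and 3237 in conjunctiva, and LDHA read 1020, 2036 and 829, just under 2-fold. The glucose transporter SLC2A1 read 555 in limbus and 1209 in cornea. Among 22 retinoid and lipid carrier genes, 5 were 2-fold higher in the limbus and 1, ALDH1A1, in the cornea (median 0.22). VLDLR, a lipoprotein receptor, read 766 in limbus, 49.6 in cornea and 372 in conjunctiva, and RBP4, the retinol carrier, 265, 78.9 and 29.6.

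Transport genes showed 5 of 21 at least 2-fold higher in the limbus and 3 in the cornea (median 0.18). The water channels AQP3 and AQP5 read 6302 and 927 in limbus and 2404 and 199 in cornea, while AQP1 of stromal cells read 403 in limbus and 665 in cornea. SLC7A2, a carrier of arginine and lysine, read 918 in limbus, 114 in cornea and 189 in conjunctiva. The chloride channel CFTR (52.8 against 141) and the sodium-potassium-chloride carrier SLC12A2 (1073 against 2365) were higher in the cornea. In the list of corneal endothelium genes, 5 of 10 were 2-fold higher in the limbus and 0 in the cornea (median 0.71), but its defining markers were alike: SLC4A11 read 144 in limbus and 128 in cornea, and COL8A2 93.1 and 109. The members that differed, among them ATP1B1 (1618 against 461), SLC4A4 (321 against 57.6) and ALCAM (498 against 138), are expressed by many other cells. The other probe set of SLC4A4 read 58.2 in limbus and 109 in cornea.

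In the list of trabecular meshwork, sclera and uvea, tissues that adjoin the limbus, 4 of 17 were 2-fold higher in the limbus and 1 in the cornea (median 0.48). These were FMOD, CHRDL1, RBP4 and PENK, the enkephalin precursor, which read 148 in limbus, 27.7 in cornea and 27.1 in conjunctiva. All 4 were under 100 in cornea and taken only for their limbus value, which fixed their direction. MYOC, myocilin of the trabecular meshwork, read 173 in limbus and 210 in cornea. CYP1B1, an oxidizing enzyme mutated in congenital glaucoma, was higher in the cornea, at 983 against 256, and its other 2 probe sets had log2 limbus/cornea of -1.61 and -3.05. Among 29 transcription factors of eye and epithelium, 4 were 2-fold higher in the limbus (SOX9, HOPX, IRX3 and ZEB2) and 1, KLF4, in the cornea, with a median of 0.15. IRX3, an Iroquois homeodomain factor, read 993 in limbus, 315 in cornea and 1130 in conjunctiva. EMX2, a homeodomain factor, was under 2-fold apart at 278 in limbus and 415 in cornea, and read 33.4 in conjunctiva.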

How the data were processed

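For each sample 10 ng of total RNA was amplified in 2 rounds and hybridized, 1 array per tissue. The authors normalized each array by RMA (justRMA; no version is given in the submitters' processing notes) in combination with 50 reference arrays that stayed fixed, so differences of scale between arrays can remain. What was deposited is a linear intensity per probe set and array, and the table held 0 columns of other samples. Genes were named from GEO's annotation of the platform, which can be old. The 13578 probe sets without exactly 1 symbol were left out. Human probes were hybridized with vervet RNA. Of the 10473 gene symbols, 9795 (93.5%) are also in the vervet RefSeq gene table, whose coordinates were not used.

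Ratios, counts and medians were computed here with Python 3.11.15, numpy 2.4.6 and pandas 2.3.3, and plots with matplotlib 3.10.9. The calculation was tested on simulated data. No pseudocount was added. Named are the 25 genes with the largest ratio on each side, members of the 39 lists and 12 marker sets at least 2-fold apart, the defining markers, and, chosen after their values were seen, list members under 2-fold as contrasts and TDRP for its opposed probe sets. Members and lists were chosen with earlier results of these data known. A position of the limbus between its neighbours was not counted over genes, since ratios that share an array are not independent. There were 13 alternative settings and 1 chosen after seeing the data.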

Additional observations from a re-analysis of the deposited data

How the results depend on the processing

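With 1 array per tissue, no replicate could be left out. No paired analysis was possible because each tissue has 1 sample. A count was taken as moved beyond 1.5 times, and a ratio likewise, there being no spread between replicates. Scaling had the largest effect on the balance of the counts. Scaling by hybridization controls gave 2929 probe sets and 1919 genes 2-fold higher in the limbus and 164 and 117 in the cornea, and moved the share of 2-fold genes on the limbus side from 58.5% to 94.3%. Scaling by ribosomal proteins gave 1369 probe sets higher in the limbus, 347 probe sets and 228 genes higher in the cornea, and a share of 80.1%. These scalings raised the median log2 of genes by 0.62 and 0.26, and removing the trend with level raised it by 0.10. Quantile normalization gave 656 and 352 genes, a share of 65.1%, and a pseudocount of 32 gave 460 and 334.

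Probe sets higher in the limbus numbered 544 with a level of at least 200 and 588 with a geometric mean of at least 100. A ratio of 1.5 gave 1876 probe sets and 1245 genes in the limbus and 2304 and 1537 in the cornea, and a ratio of 3 gave 401 and 303 against 173 and 119. The other settings left the counts within 1.5 times. Of 236 named genes at least 2-fold apart, 1 reversed: TDRP, with a log2 limbus/cornea of -1.07 on its brightest probe set and 0.61 as the median over its probe sets. Each setting was counted separately: a pseudocount moved 54 of them by over 1.5-fold, and hybridization controls moved all 236. The median over probe sets moved 17 besides TDRP. Of the 39 list medians, 12 were negative as deposited and 1 after scaling by hybridization controls. Values under 100 are near background, where ratios are least certain.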

Other observations

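Probe sets that could not be assigned to exactly 1 gene held differences as well. Of 1458 probe sets without a symbol in the table and with a value of at least 100 in either tissue, 57 (3.91%) had a value in limbus at least 2-fold that in cornea and 53 (3.64%) the reverse. Of 773 with several symbols, 41 (5.30%) and 24 (3.10%) were. For GAPDH the control probe set at the 3' end read 3.12 times that at the 5' end in limbus and 4.58 times in cornea, and for ACTB 11.8 and 11.2 times.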
